A study of Mus musculus with 4 samples.

Results

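The genes described here are 10 components of the circadian clock, Arntl, Clock, Per1, Per2, Per3, Cry1, Cry2, Nr1d1, Nr1d2 and Dbp, taken by gene symbol from the 27933 genes counted. All 10 passed the filter on low counts, which left 13348 genes. RNA-seq had been made from mouse melanocyte stem cells, which give rise to the pigment cells of the hair follicle, sorted from skin by flow cytometry. Control mice had received saline (n = 2 libraries) and stressed mice had received RTX, which the labels name by this abbreviation alone (n = 2 libraries), and cells were harvested 12 h after injection. The labels give no strain, age or sex, no clock hour of injection or harvest, and no statement of whether the libraries of a group came from separate mice, so the p-values measure only the spread of these libraries, part of which may be technical. The series title concerns loss of these stem cells under sympathetic nerve activity, and the comparison asks how transcripts differ between stressed and control cells.

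The clock is a feedback loop of transcription that runs in most cells, those of the skin and hair follicle included. The proteins of Clock and Arntl (BMAL1) pair up and bind E-box DNA to drive Per, Cry, Nr1d and Dbp genes, PER and CRY proteins then block that pair, and the receptors encoded by Nr1d1 and Nr1d2 (REV-ERB alpha and beta) shut down Arntl through the DNA element that ROR receptors activate. DBP, a clock output, binds D-box DNA. Glucocorticoid and cAMP signals can induce Per1 directly, which is one way the clock of a tissue is reset.

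These elements can be read in the promoters of several of the genes, from RefSeq sequence of build GRCm38.p6, which held entries for 9 of the 10 genes (not Per2). The stretches below are shown because they hold letters of the kind that the clock proteins bind. All lie before the start of transcription of a RefSeq entry, the base before that start being position -1, and are written 5′ to 3′ on the strand of the gene with the element in capitals. The E-box CACGTG begins at position -166 in Per1 (chr11:69098763-69098808, plus strand), at position -60 in Cry1 (chr10:85185089-85185134, minus strand) and at positions -116, -58 and -44 in Ciart (chr3:95882247-95882364, minus strand), a gene for a repressor of the clock described further on. The D-box TTATGTAA begins at positions -205 and -158 in Per3 (chr4:151044796-151044890, minus strand). The core of the ROR element, AGGTCA, begins at position -77 in Nr1d2 (chr14:18239158-18239203, minus strand). Per1 has 2 entries with different starts, and the stretch shown comes from the entry that starts at base 69098949, while the other holds no E-box. The whole Per1 stretch (46 bases) and the last 5 bases of that of Ciart lie inside these genes as the count files annotate them, since the files place their starts further upstream.
Per1: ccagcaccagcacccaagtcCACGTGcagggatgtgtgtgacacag
Cry1: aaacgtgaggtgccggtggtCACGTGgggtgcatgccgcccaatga
Ciart: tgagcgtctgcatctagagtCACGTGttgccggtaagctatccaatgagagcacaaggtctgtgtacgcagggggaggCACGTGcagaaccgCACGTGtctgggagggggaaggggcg
Per3: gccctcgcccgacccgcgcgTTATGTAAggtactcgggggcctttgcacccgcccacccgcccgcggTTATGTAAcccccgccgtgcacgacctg
Nr1d2: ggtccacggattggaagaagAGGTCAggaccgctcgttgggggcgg

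Both strands of the 250 bases before each start were searched. CACGTG was present in 6.02% of 32851 promoters, a D-box (TTATGTAA or TTACGTAA) in 0.931% and AGGTCA in 14% of them. The cAMP response element TGACGTCA was searched too and was present in 1.55%. The 9 clock genes had 13 promoter entries, of which 2 held the E-box, 1 the D-box and 3 AGGTCA (1 of the 3 entries of Clock, 1 of the 2 of Per1, and that of Nr1d2). TGACGTCA was in 0 of the 13 entries. A match describes these letters only and is not evidence of binding.

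The libraries held between 9273652 and 11854280 counts, so that 1 read was worth between 0.0847 and 0.107 CPM (reads per gene relative to the TMM-scaled total of the library), and a count of 0 allows up to 0.323 CPM; both cover counting error only. Pigment cell genes were abundant in every library, with Dct, the dopachrome tautomerase gene, between 9776 and 15925 CPM. Sums over a list of genes, here and below, are in CPM on plain library totals, without TMM. The 9 lineage markers summed to 23080 and 21770 CPM for the controls and 40140 and 37060 CPM for the stressed pair. Of these markers 6 were higher in stressed cells without overlap, beside 21.8% of all tested genes. Sox10, Mitf and Ednrb overlapped between groups, with log2 fold changes of 0.08, 0.21 and -0.004. Here and below replicate 1 is given before replicate 2. Keratinocyte RNA was present too and moved with the groups: 13 markers summed to 29270 and 17700 CPM in the controls and to 11610 and 10130 CPM in the stressed libraries. Keratinocytes have the same clock genes, and the part of their RNA in the values below was not tested. Markers of fibroblasts, immune cells, endothelium, Schwann cells and muscle each summed to at most 40.01 CPM in every library, and the fibroblast gene Lum, the endothelial gene Cdh5 and the muscle genes Ckm and Des had no counts in any of them. Fewer cells of a type and less RNA per cell cannot be told apart in bulk RNA. The control libraries were less alike than the stressed ones, with 12.5% of tested genes more than 2-fold apart, against 6.55% for the stressed pair. The share of reads from mitochondrial genes was 0.906% and 2.07% for the control pair against 0.479% and 0.405% for the stressed pair, so this share too stood apart by group and was widest between the controls, and its part in the values below was not tested.

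No clock gene was called different between stressed and control cells. EdgeR's quasi-likelihood test called 0 of the 10 at an adjusted p below 0.05, as did DESeq2 and limma-voom, beside 0% of all tested genes called by edgeR, 4.4% by DESeq2 (1.73% higher, 2.67% lower) and 0% by limma-voom. At an unadjusted edgeR p below 0.05 there was 1 clock gene, Arntl, against 12.8% of all genes. The 10 fitted log2 fold changes, stressed over control, ran from -0.63 for Arntl to 1.33 for Nr1d1. Of these, 6 were positive and 4 negative, against 49.1% positive over all tested genes. Their median was 0.08 beside -0.0091 over all tested genes. In 5 of the 10 the groups did not overlap, 3 higher and 2 lower in stressed cells, close to the 44.7% of all tested genes (21.8% higher, 22.9% lower). With plain library totals in place of TMM, 1 was higher and 2 were lower, and with DESeq2 size factors Clock too was higher without overlap.

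**Figure D1:**
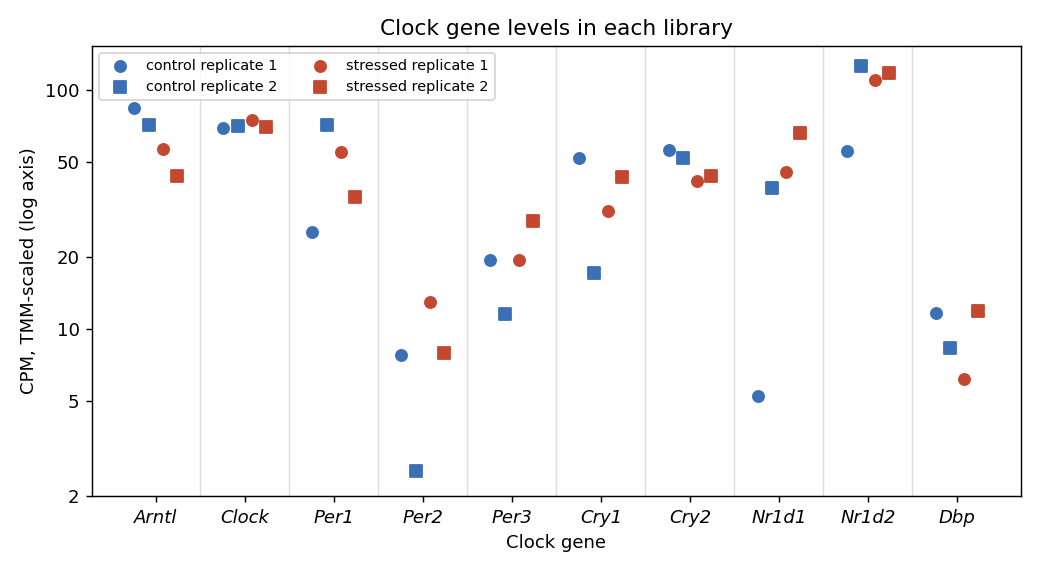
Levels of the 10 clock genes in CPM on a log axis, 1 point per library, controls in blue and stressed in red, replicate 1 as circles and replicate 2 as squares. Both stressed libraries are below both controls for Arntl, while Nr1d1 stands at 5.25 CPM in control replicate 1 and at 38.8 CPM or more in the other 3 libraries.

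The activators differed from each other. Arntl (chromosome 7, 113207465-113314122, mm10, plus strand), which encodes BMAL1, stood at 83.8 and 71.1 CPM for the control pair and at 56.3 and 43.8 CPM for the stressed pair. Both stressed libraries were below both controls, and the controls were close to each other. The group means were 77.4 ± 8.97 and 50.1 ± 8.84 CPM (SD, n = 2), which gave a fitted difference of -0.63 on the log2 scale (SE 0.21, edgeR adjusted p = 0.304). Arntl was the only clock gene whose fitted difference was over 2 times its SE, and it was negative without any one library, between -0.82 and -0.45. Clock (chromosome 5, 76209868-76304792, minus strand), the gene of BMAL1's partner, was the most even of the set, at 69.2 and 70.4 CPM for the controls against 74.7 and 70.1 CPM for the stressed pair. Its log2 fold change was 0.05 (SE 0.17).

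The Period genes, which encode repressors of that pair, each lay further apart on the log2 scale in the control pair than in the stressed pair. Per1 (chromosome 11, 69095217-69109960, plus strand) stood at 25.4 and 71.3 CPM for the control pair, and at 55.2 and 35.7 CPM for the stressed pair. Both stressed libraries thus lay between the controls, which were 2.81-fold apart (95% exact binomial interval 2.43 to 3.26, counting error only). The fitted log2 fold change of -0.09 had an SE of 0.48.

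Per2 (chromosome 1, 91415982-91459324, minus strand) had the lowest mean level of the set per length, with 73 and 30 reads for the control pair against 138 and 87 for the stressed pair. These were 7.82 and 2.54 CPM against 13.0 and 7.91 CPM, so that stressed replicate 2 exceeded control replicate 1 by less than 0.1 CPM, and with library totals alone or upper-quartile scaling the groups overlapped. The log2 fold change was 1.02 (SE 0.61, edgeR adjusted p = 0.554). Per3 (chromosome 4, 151003652-151044665, minus strand), whose promoter holds the pair of D-boxes shown above, stood at 19.5 and 11.5 CPM for the controls against 19.5 and 28.2 CPM for the stressed pair. Control replicate 1 and stressed replicate 1 were level, and which was higher depended on the scaling. The log2 fold change of Per3 was 0.62 (SE 0.36, edgeR adjusted p = 0.539).

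The cryptochromes, the partners of PER proteins in repression, did not share a pattern. Cry1 (chromosome 10, 85131702-85185054, minus strand) stood at 51.8 and 17.2 CPM for the control pair and at 31.2 and 43.2 CPM for the stressed pair. As for Per1, both stressed libraries lay between the controls, but in Cry1 control replicate 1 was the higher one. Its log2 fold change was 0.11 (SE 0.50). Cry2 (chromosome 2, 92403646-92434043, minus strand) was steadier, at 56.2 and 51.8 CPM for the controls against 41.8 and 43.8 CPM for the stressed pair. Both stressed libraries lay below both controls, with means of 54.0 ± 3.17 and 42.8 ± 1.45 CPM (SD, n = 2). The log2 fold change of Cry2 was -0.34 (SE 0.19, edgeR adjusted p = 0.537).

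Of the REV-ERB genes, Nr1d1 had the widest gap between the controls of all 10 clock genes. Nr1d1 (chromosome 11, 98767932-98775333, minus strand) had 49 and 458 reads for the control pair, against 485 and 727 for the stressed pair. In CPM this was 5.25 and 38.8 against 45.5 and 66.1, so that both stressed libraries were the higher ones and control replicate 1 was far below the other 3. The controls were 7.39-fold apart (95% exact binomial interval 5.50 to 10.1, counting error only), and 1.01% of tested genes had a control gap of at least this size. The log2 fold change was 1.33 (SE 0.78, edgeR adjusted p = 0.544). Nr1d2 (chromosome 14, 18204054-18239127, minus strand) stood at 55.4 and 126 CPM for the controls against 110 and 117 CPM for the stressed pair. Here too control replicate 1 was the low library, and control replicate 2 was above both stressed libraries. Its log2 fold change was 0.33 (SE 0.37).

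Dbp (chromosome 7, 45705247-45710203, plus strand), the output gene, overlapped between groups at 11.7 and 8.30 CPM for the controls against 6.20 and 11.9 CPM for the stressed pair. Stressed replicate 2 was the highest and stressed replicate 1 the lowest, and the log2 fold change was -0.14 (SE 0.45). Of the exon length of Dbp, 32.1% overlaps exons of Sphk2 on the opposite strand, and of that of Nr1d1 8.55% overlaps Thra on the opposite strand. Counting was unstranded, so reads there cannot be assigned to 1 gene of the pair and the levels of both clock genes are uncertain to that extent.

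Per kilobase of exon, the mean level over the 4 libraries was highest for Arntl at 21.95 CPM per kb and Nr1d2 at 20.4, followed by Nr1d1 at 12.7, Cry1 at 11.9, Per1 at 8.33, Cry2 at 7.66, Dbp at 5.67, Clock at 5.18, Per3 at 2.05 and Per2 at 1.33. The ranges over libraries overlapped between each gene and the next in this order, except those of Clock and Per3, which were apart at 5.04 to 5.44 and 1.20 to 2.93 CPM per kb.

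In 5 of the 10 clock genes the controls were more than 2-fold apart, against 12.5% of all tested genes. Control replicate 2 was higher in Per1, Nr1d1 and Nr1d2 and lower in Per2 and Cry1. In the stressed pair 0 of the 10 were more than 2-fold apart, against 6.55% of all tested genes. For 7 of the 10 the gap between the controls was larger than the fitted difference between the groups. These gaps compare single libraries and have no test across mice.

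**Figure D2:**
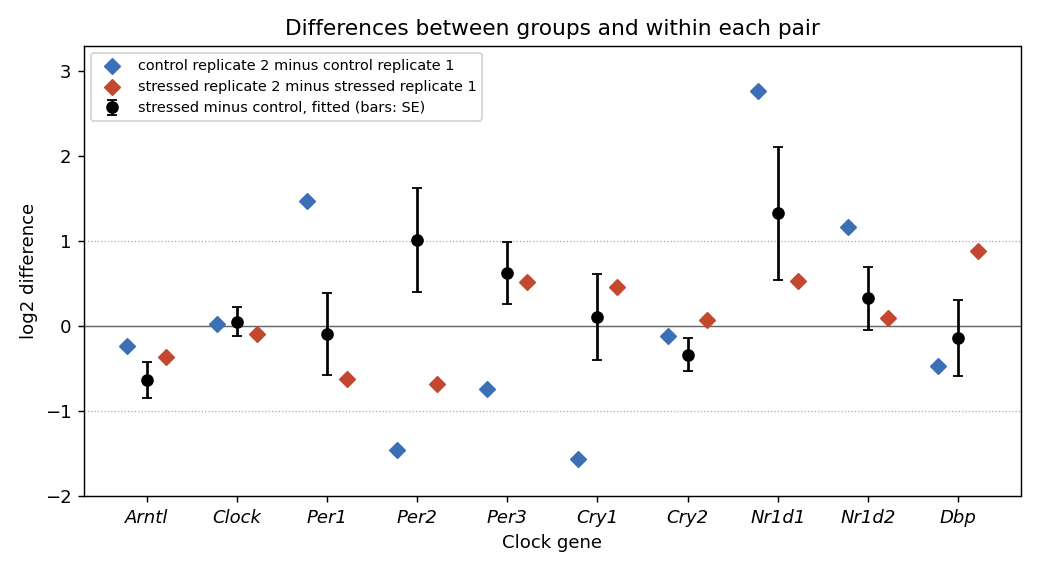
Log2 differences for each clock gene: control replicate 2 minus control replicate 1 (blue diamonds), the fitted stressed minus control difference with its SE (black), and stressed replicate 2 minus stressed replicate 1 (red diamonds), with dotted lines at 2-fold. Blue diamonds lie beyond 2-fold for 5 genes, red ones for 0.

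Leaving out a control library moved most of the values. Without control replicate 1 the log2 fold change of Nr1d1 was 0.54, that of Per2 2.05, of Per3 1.06, of Cry1 1.12, of Per1 -0.64 and of Nr1d2 -0.13, and edgeR called 0 clock genes. Without control replicate 2 the same genes stood at 3.41, 0.42, 0.30, -0.48, 0.84 and 1.04 in that order. In that fit edgeR called 2 clock genes higher, Nr1d1 at an adjusted p of 0.00608 and Nr1d2 at 0.0263, as did DESeq2, beside 5.34% of all tested genes called by edgeR and 5.78% by DESeq2. Both shares count genes called in either direction, and more of those genes were lower than higher. Per1, Cry1 and Nr1d2 had opposite signs against the one control library and against the other, and Dbp went from 0.14 to -0.36. Arntl, Clock, Per2, Per3, Cry2 and Nr1d1 had the same sign in both fits.

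**Figure D3:**
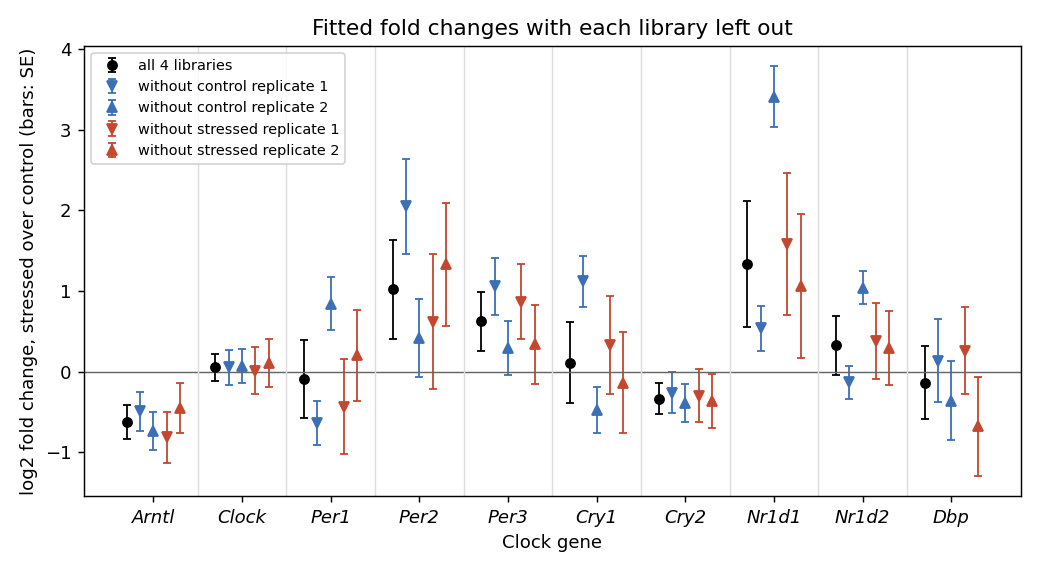
Fitted log2 fold changes (edgeR, bars SE) with all 4 libraries in black, with 1 control left out in blue and with 1 stressed library left out in red. The Nr1d1 value ranges from 0.54 to 3.41, while the 5 values of Clock lie between 0.01 and 0.11.

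Ratios to Arntl within a library do not depend on how libraries are scaled. Per length, Nr1d1 stood at 0.0591 and 0.515 of Arntl for the control pair and at 0.763 and 1.42 for the stressed pair. The ratio of Nr1d2 was 0.384 and 1.03 for the controls against 1.13 and 1.56 for the stressed pair. Both stressed libraries were the higher ones for both genes, and control replicate 1 was the lowest. The counting intervals of Nr1d2 in control replicate 2 (0.942 to 1.12) and stressed replicate 1 (1.03 to 1.25) overlapped. Per1 had ratios of 0.156 and 0.518 for the controls against 0.505 and 0.420 for the stressed pair, and these overlapped. The ratio of Clock, whose own level was even, was 0.175 and 0.210 against 0.281 and 0.338 and did not overlap. Ratios of Per2, Per3 and Cry2 were also higher in both stressed libraries, and those of Cry1 and Dbp overlapped. Cry2 stood at 0.308 and 0.335 against 0.341 and 0.459, though its own level was lower in stressed cells. Its counting intervals in control replicate 2 (0.301 to 0.372) and stressed replicate 1 (0.301 to 0.386) overlapped. Arntl itself was lower in both stressed libraries, which raises every ratio to it.

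**Figure D4:**
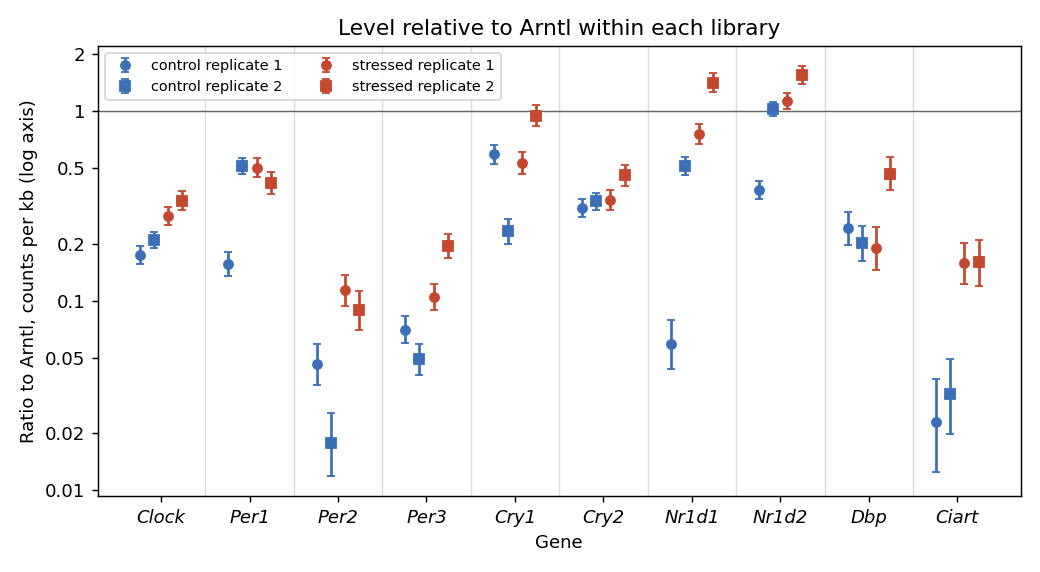
Level of each gene relative to Arntl in the same library, counts per kb of exon, on a log axis, with 95% exact binomial intervals (counting error only), controls blue and stressed red. Nr1d1 spans 0.0591 to 1.42, and for Ciart both stressed libraries (0.158 and 0.160) are above both controls (0.0230 and 0.0321).

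Of 28 further genes of the clock pathway, 27 were tested (all except Fbxl21). EdgeR called 0 of them at an adjusted p below 0.05, limma-voom called 0, and DESeq2 called 1, Usp2, beside 4.4% of all genes. At an unadjusted edgeR p below 0.05 there were 2 higher and 2 lower, against 5.17% and 7.6% of all genes. The groups did not overlap for 7 higher and 3 lower genes, against 21.8% and 22.9% of all genes.

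Among the activator paralogues and ROR receptors (4 genes, all tested, 1 fitted higher and 3 lower, median log2 fold change -0.34), Rora, which encodes an activator of Arntl, was the most abundant per length, at 230 and 104 CPM for the controls against 139 and 106 CPM for the stressed pair. Arntl2, a paralogue of Arntl, had 140 and 169 reads against 86 and 184, or 14.7 ± 0.481 against 12.4 ± 6.12 CPM (SD, n = 2). Both overlapped between groups, with log2 fold changes of -0.44 (SE 0.38) and -0.24 (SE 0.41). Npas2, a paralogue of Clock named here after its values were seen, had 124 and 48 reads against 32 and 20, or 8.68 ± 6.52 against 2.41 ± 0.838 CPM (SD, n = 2), with a log2 fold change of -1.84 (SE 0.70, edgeR adjusted p = 0.354). Leaving out control replicate 1 gave an Npas2 value of -0.74. Leaving out control replicate 2 gave one of -2.45, where edgeR called Npas2 lower and DESeq2 did not. Without control replicate 2, Rora was called lower by DESeq2 alone, at -0.90 (adjusted p = 0.0201).

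The list of PAR bZIP factors, relatives of DBP, with their antagonist held 3 genes, 2 fitted higher and 1 lower with a median of 0.19. Nfil3, the antagonist at D-boxes, was the most abundant per length, at 47.6 and 69.9 CPM for the controls against 90.0 and 80.4 CPM for the stressed pair. Both stressed libraries were higher, a log2 fold change of 0.54 (SE 0.23, edgeR adjusted p = 0.414). Hlf overlapped, at 22.7 and 10.3 against 11.9 and 14.8 CPM.

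The 4 other repressors of the clock were all fitted higher, beside 49.1% of all tested genes, with a median of 0.37. The groups overlapped for 2 of them, and 0 were called by edgeR, DESeq2 or limma-voom. Bhlhe40, which encodes a repressor that competes at E-boxes, was the most abundant, at 459 and 807 CPM for the controls against 771 and 840 CPM for the stressed pair. These overlapped, with control replicate 1 low, and DESeq2 called Bhlhe40 higher only without control replicate 2, at 0.82 (adjusted p = 0.00308). Its paralogue Bhlhe41 did not overlap, at 98.0 and 121 against 146 and 142 CPM, a log2 fold change of 0.39 (SE 0.19, edgeR adjusted p = 0.454). Ciart, which encodes a repressor of the CLOCK and BMAL1 pair and whose promoter with 3 E-boxes is shown above, was chosen after its values were seen. CACGTG was also present in promoter entries of Bhlhe41, Cipc and Tef, with log2 fold changes of 0.39, 0.16 and 0.19. Any link of these letters to the fold changes was not tested. Ciart had 14 and 21 reads for the controls against 74 and 60 for the stressed pair, or 1.64 ± 0.198 against 6.20 ± 1.05 CPM (SD, n = 2). Its controls were 1.19-fold apart (95% exact binomial interval 0.575 to 2.52, counting error only). With so few reads this interval is wide and overlaps that of Per1 (2.43 to 3.26), while that of Nr1d1 (5.50 to 10.1) lies above it. The log2 fold change of Ciart was 1.91 (SE 0.56), at an adjusted p of 0.254 by edgeR and 0.121 by DESeq2, and it lay between 1.73 and 2.08 with any one library left out of the edgeR fit.

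Of 11 kinases and regulators of protein stability, 10 were tested, 6 fitted higher and 4 lower with a median of 0.04. Usp2, a clock-driven gene for a deubiquitinase, stood at 31.2 and 42.2 CPM for the controls against 66.4 and 79.7 CPM for the stressed pair. Both stressed libraries were higher, with means of 36.7 ± 7.79 and 73.1 ± 9.46 CPM (SD, n = 2). The log2 fold change was 0.99 (SE 0.23), and its adjusted p was 0.186 by edgeR and 0.0206 by DESeq2. EdgeR called Usp2 with no low-count filter (adjusted p = 0.0132) and without control replicate 2 (0.0313). The DESeq2 call was lost without control replicate 1 (adjusted p = 0.211), without stressed replicate 1 (0.407) and without stressed replicate 2 (1). Ppp1cb, a phosphatase subunit gene, was at 223 and 181 against 156 and 129 CPM, a log2 fold change of -0.51 (edgeR adjusted p = 0.380). Csnk1d, whose casein kinase marks PER proteins for degradation, was the most abundant per length and overlapped, at 297 and 384 against 339 and 443 CPM.

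The 6 clock-associated and output genes were all fitted higher, beside 49.1% of all tested genes, with a median of 0.31. The groups overlapped for 4 of them, and 0 were called by edgeR, DESeq2 or limma-voom. Wee1, a clock-driven gene for a mitotic inhibitor kinase, was the most abundant per length and stood at 35.9 and 144 CPM for the control pair and 124 and 102 CPM in the stressed libraries. Control replicate 1 was again the low library, as in Nr1d1, Nr1d2 and Per1. Without control replicate 2 Wee1 was called higher by edgeR, at a log2 fold change of 1.65 and an adjusted p of 0.00893. Noct, a gene of the deadenylase family with a daily rhythm in many tissues, was at 17.6 and 11.4 against 21.1 and 16.0 CPM, and Nampt, an NAD synthesis gene driven by the clock, at 65.9 and 80.0 against 86.7 and 96.8 CPM. The Nampt groups did not overlap and its edgeR adjusted p was 0.532.

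**Figure D5:**
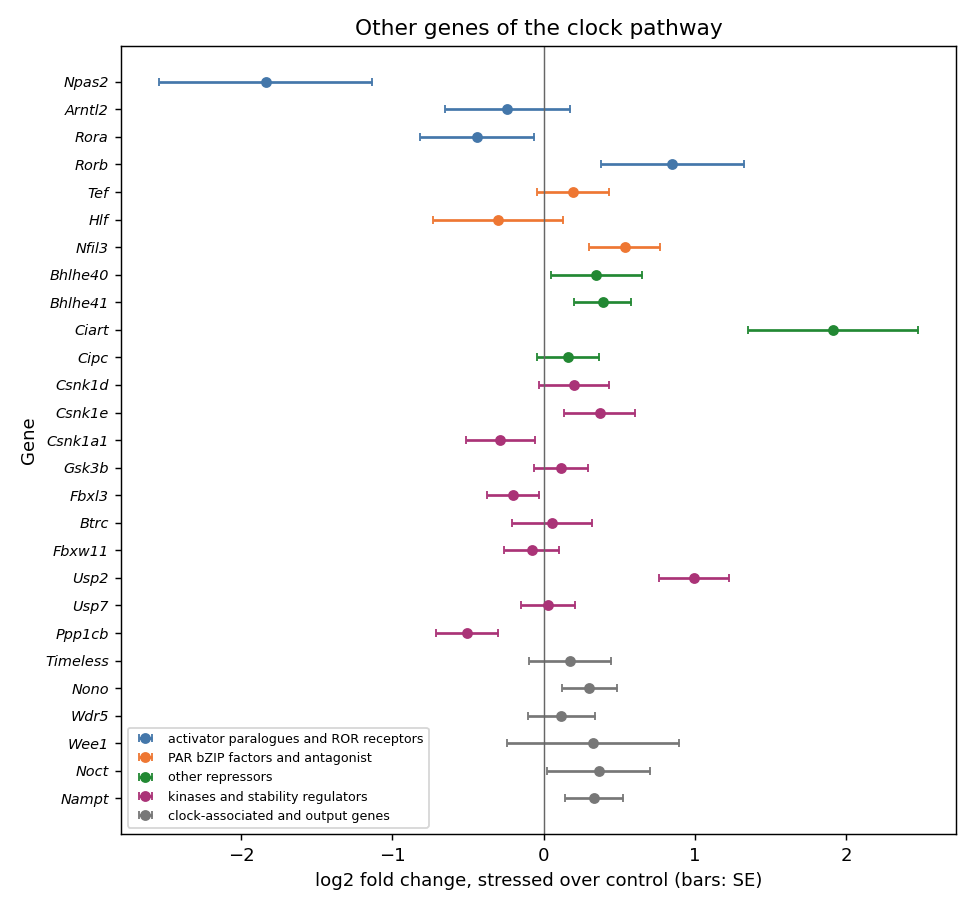
Fitted log2 fold changes, stressed over control, with SE for the 27 tested genes of the wider clock pathway, coloured by list. Ciart (1.91) and Usp2 (0.99) have the highest values and Npas2 (-1.84) the lowest.

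Genes of signals that can reset the clock are given beside Per1. Of 7 genes of the glucocorticoid response, edgeR, DESeq2 and limma-voom called 0, against 0%, 4.4% and 0% of all tested genes, and 0 had an unadjusted edgeR p below 0.05, against 12.8%. Their summed level on plain library totals was 760.6 and 1588 CPM for the control pair and 1128 and 809 CPM for the stressed pair. This was the order of libraries seen in Per1. Klf9, Tsc22d3 and Zbtb16 had that order, while Fkbp5 and Nr3c1 had the stressed pair the other way round. Sgk1, at 193 and 178 against 158 and 90.0 CPM, and Errfi1, at 86.3 and 95.1 against 111 and 81.4 CPM, had other orders and close controls. Klf9, a transcription factor gene induced by glucocorticoids, was at 98.4 and 528 CPM for the controls against 228 and 191 CPM for the stressed pair. Of 8 immediate early and cAMP-responsive genes edgeR and limma-voom called 0, and 1 was higher and 4 were lower at an unadjusted edgeR p below 0.05, against 5.17% and 7.6% of all genes. DESeq2 called those 4 lower, the early response genes Fos, Junb, Egr1 and Ier2, against 2.67% of all genes. The controls were close for Egr1 (2933 and 3002 CPM). Ier2, Nr4a1 and Sik1 were lower in control replicate 2 than in control replicate 1, unlike Per1. Fos (5968 and 11391 CPM), Fosb (193 and 423 CPM), Junb (1988 and 3395 CPM) and Crem were higher in control replicate 2, as Per1 was. Crem, a cAMP-responsive factor gene, was at 24.2 and 30.1 against 49.0 and 38.5 CPM, with an edgeR adjusted p of 0.335. The part of these signals in the clock gene values was not tested.

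Over the 4 libraries, the genes with the profile most like that of Per1, by root-mean-square difference of centred log2 CPM among 9961 genes of at least 10 CPM, were Spsb1 (0.0189), Tsc22d3 (0.0971), a member of the glucocorticoid list, and Zfp334 (0.102). Those most like Dbp were Amigo1, Dhrs11 and Lipo1, between 0.0567 and 0.0832, and those most like Arntl were Rgs12, Arhgef28 and Zfp113, between 0.0246 and 0.0310. With 4 libraries such likeness is common: 68 genes lay within 0.25 of Per1, 338 of Dbp and 1239 of Arntl.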

How the data were processed

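The authors deposited whole-number read counts per gene, made with featureCounts 1.6.1 per the file headers, which record exons summed by gene name on mm10, a minimum mapping quality of 30 and no strand option. The submitters' processing notes name Trim Galore 0.4.1, STAR 2.5.3 and DESeq2 1.22.2. Per the file headers, the alignments behind stressed replicates 1 and 2 carry the numbers 2 and 3.

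Counts were analysed in R 4.3.3. Genes kept by edgeR's filterByExpr (minimum count 10) were scaled by TMM and compared, stressed minus control, with the two-sided quasi-likelihood F-test of edgeR 4.0.16, group as the only term. P-values were adjusted by Benjamini-Hochberg over all 13348 tested genes, and a gene was called below 0.05. The SE is the absolute log2 fold change over the square root of F. Alternatives were DESeq2 1.42.0, limma-voom (limma 3.58.1), 3 other scalings, 2 other filters, the replicate number as a block, and each library left out, where the lone library is taken to vary as the other group does. The scripts were tested on simulated data. Log2 gaps within a pair used a pseudocount of 0.5 CPM, and coordinates are those of the files. Libraries of a pair differed by more than sampling noise (chi-square per degree of freedom 44.0 and 15.0).

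All 10 clock genes were to be named, and from each further list the called genes, the 2 largest fold changes at a mean of at least 10 CPM and the most abundant per length. Of these lists, 1 gene is not reported here. The genes and lists were chosen with earlier results of these data known.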

Additional observations from a re-analysis of the deposited data

How the results depend on the processing

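EdgeR called 0 of the 10 clock genes under the 3 other scalings, both other filters and the replicate block, as did DESeq2 and limma-voom on all libraries, and between 0 and 2 with 1 library left out. DESeq2 with 1 library left out, chosen after seeing the data, also gave between 0 and 2. Over all 13348 tested genes edgeR called 0, against 587 by DESeq2 (231 higher, 356 lower). With no low-count filter edgeR called 760 of 18926 genes. With 1 library left out the count was between 0 and 739 by edgeR and between 44 and 800 by DESeq2; edgeR called 305 genes higher and 323 lower when control replicate 1 was dropped, and 226 higher and 513 lower when control replicate 2 was. DESeq2 called 477 genes in the first of these fits (274 higher, 203 lower), 800 in the other (327 higher, 473 lower), and 142 without stressed replicate 1 (38 higher, 104 lower). Of the other clock pathway genes, 1 was called by DESeq2 and 1 by edgeR with no low-count filter, Usp2 in both; leaving out 1 library gave between 0 and 3 by edgeR and between 0 and 4 by DESeq2. The median over the 10 clock genes was 0.21 by limma-voom, and with 1 library left out it lay between 0.095 and 0.30 by edgeR and between 0.088 and 0.30 by DESeq2, at 0.18 by both without control replicate 2.

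Of 160 values for single clock genes under 16 alternatives, 16 changed sign, in Per1, Cry1, Nr1d2 and Dbp. Per1 was 0.014 by limma-voom, 0.048 with the replicate block, and by edgeR and DESeq2 0.84 and 0.85 without control replicate 2, and 0.20 by both without stressed replicate 2. Cry1 was -0.48 by both without control replicate 2 and -0.14 by both without stressed replicate 2. Nr1d2 was -0.13 and -0.14 without control replicate 1. Dbp was 0.14 and 0.13 without control replicate 1, and 0.26 by both without stressed replicate 1. With 1 library left out the edgeR values ran from -0.64 to 0.84 for Per1, from -0.48 to 1.12 for Cry1, from -0.13 to 1.04 for Nr1d2 and from -0.68 to 0.26 for Dbp. The cause was not tested. The replicate numbers are only numbers in the labels: deviations from the group means of same-numbered libraries correlated at 0.172 across genes, and with them as a block edgeR called 0 of the 10 clock genes, 0 of the other clock genes and 0 of all genes, with a clock gene median of 0.17. Low counts limit Per2, Dbp, Npas2 and Ciart most.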
